A study of Drosophila melanogaster with 12 samples.

Results

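Long noncoding RNAs (lncRNAs) were examined in the sorted progenitor cells of the adult Drosophila midgut after manipulation of shavenbaby (svb). The set was every gene of the deposited table whose symbol begins with "lncRNA:", apart from CR44833, whose annotated span overlaps that of ovo, the gene locus that encodes Svb. This gave 143 of 8802 genes. They were taken by symbol and not by level or change, although earlier results of these data were known when the set was chosen.

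Svb is a zinc finger transcription factor that is made as a repressor and trimmed by the proteasome into an activator. All flies carried esg-Gal4, which is active in intestinal stem cells and enteroblasts, with UAS-GFP and a ubiquitous temperature-sensitive Gal80 that holds the driver off until the flies are warmed. In 1 cross the driver also switched on an RNAi hairpin against svb (UAS-SvbRNAi, 1 VDRC line). Another cross expressed UAS-SvbACT::GFP, a constitutive activator form. The last cross expressed UAS-Svb3Kmut::GFP, which the study calls SvbREP, a constitutive form that represses. Control flies came from crossing the driver to the wild-type strain Canton-S, so they held no svb transgene. Comparisons with control therefore also differ in the parent strain and in an added UAS insertion. These cannot be told apart from the change in svb. The transgene crosses differ from each other in their line as well. Virgin females were aged 3 days, kept at 29 °C for 6 days and dissected. The posterior midguts of many females were pooled for each batch, GFP-positive cells were sorted, and total RNA was sequenced. Each of the 4 groups had 3 libraries, prepared on different calendar days according to the study.

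Libraries held between 2965852 and 6575392 counts, and SvbREP replicates 1 and 2 were the shallowest, with 2965852 and 3584798 counts. Levels are given as CPM, that is, counts scaled to a common library total, with sizes adjusted by edgeR's TMM method. A count of 3 corresponded to between 0.483 and 1.02 CPM, which was taken as the floor of detection, and this floor covers counting error only. Counts at ovo went against one label. The 3 libraries labelled as svb RNAi had 225, 206 and 209 counts, the SvbACT libraries 8803, 11189 and 11901, the SvbREP libraries 6145, 7910 and 12642, and the control libraries 4, 64 and 3. Counts at ovo were therefore higher, not lower, in the libraries labelled as svb RNAi than in controls, and reads from a transgene cannot be told apart from those of the gene in these counts. Control replicate 2 stood apart from the other controls at ovo.

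Progenitor markers summed to between 6575 and 7823 CPM in the libraries labelled as svb RNAi, 9571 and 11874 in SvbACT, 7406 and 8881 in SvbREP, and 8779 and 10236 in control libraries, and none of the 8 measured was at 0. Markers of other gut cells were also present. Enteroendocrine markers summed to 1299 and 2000 CPM in SvbREP replicates 1 and 2, against 273 CPM in SvbREP replicate 3 and between 221 and 754 CPM in controls. They summed to between 295 and 1043 CPM in the libraries labelled as svb RNAi, highest in replicate 1, and between 302 and 551 CPM in SvbACT.

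Insect lncRNAs range from short single-exon transcripts to long nuclear RNAs that organise protein. Hsromega is a nuclear RNA induced by heat that gathers hnRNP proteins into omega speckles. let7C is the primary transcript of a microRNA cluster that includes let-7, and flam is the locus whose transcripts give rise to transposon-silencing piRNAs in ovarian somatic cells. The roX RNAs, which bring the dosage compensation complex to the male X chromosome, have no row among the deposited counts and could not be measured. For most other members only a CR number is known, and no function is given for them below.

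The Ensembl release 115 annotation of the dm6 genome holds 1947 genes whose symbol begins with "lncRNA:", so the set is a small part of the class. All 143 lncRNAs of the set were found there. Their genes lay on 2L (28), 2R (20), 3L (26), 3R (39), 4 (2) and X (28). The X share, 19.6%, stood beside 17.0% of all genes of the table. Of the lncRNA genes, 72 lay outside any protein-coding gene, 48 lay wholly inside one and 23 overlapped one in part. With the exons of all transcripts of a gene merged, 70 of them formed a single block. The median of these merged exon bases per gene was 1087. Exon bases were shared with another gene of the table by 19. The strand setting of the authors' counting is not given in the sources used here, so for overlapping genes it is not known to which gene reads were given.

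The lncRNAs took between 1.10% and 1.42% of all counts in a library. Most were scarce. Their median level over the 12 libraries was 2.70 CPM, against 19.2 CPM for all genes of the table, and 24 averaged under 1 CPM while 11 reached 100 CPM. At least 3 counts were seen for 112 to 126 of the 143 in each library. A filter on low counts left 108 to be tested, and the 35 others averaged at most 1.44 CPM.

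A pair of RNAs dominated the class. CR42862 (FBgn0262109, 3L:224106-230964, plus strand) and Hsromega (3R:21296127-21317836, plus strand) together took between 60.3% and 73.1% of the lncRNA counts. CR42862 averaged 5781 ± 299 CPM in the libraries labelled as svb RNAi, 4843 ± 286 in SvbACT, 4999 ± 408 in SvbREP and 5110 ± 361 in control libraries (SD, n = 3 each). These ranges lay close together, and no comparison of CR42862 passed the test (edgeR adjusted p = 0.275 for svb RNAi, 0.766 for SvbACT and 0.909 for SvbREP against control).

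Hsromega had 3482, 2206 and 2870 CPM in the libraries labelled as svb RNAi. It had 4416, 3615 and 4802 CPM in SvbACT, 2710, 3144 and 3479 CPM in SvbREP, and 3107, 2212 and 3267 CPM in control libraries. Every SvbACT library thus lay above every control library. The log2 fold change of SvbACT over control was 0.58 (SE 0.178, edgeR adjusted p = 0.0553), just outside the threshold of 0.05. With the replicate number in the model as a block, it passed (log2 fold change 0.59, edgeR adjusted p = 0.00347). Deviations of same-numbered SvbACT and control libraries were weakly correlated (0.113, 0.248 and 0.189), as set out in the account of the processing, so both values are given. CG16791, which lies 464 bases from Hsromega on the opposite strand, was called higher in SvbACT than in control, with a log2 fold change of 0.99 (edgeR adjusted p = 1.95e-05).

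Per kilobase of exon the order differed. CR40469, a transcript of 214 exon bases (X:122493-122706, plus strand), came first with 2491 CPM per kilobase averaged over the 12 libraries, though in the libraries labelled as svb RNAi it had 331 CPM per kilobase, below CR42862 (1054) and the alphagamma-element CR32865 (675). Over all libraries CR42862 followed with 945, then CR32865 with 651, CR44999 with 263, CR44886 with 204 and Hsromega with 151 CPM per kilobase. CR32865 (3R:12475336-12478267) lies 7560 bases from Hsp70Ba, and 45.8% of its exon bases are annotated as transposon. It averaged 915 ± 233 CPM in the libraries labelled as svb RNAi, 758 ± 275 in SvbACT, 780 ± 217 in SvbREP and 1079 ± 235 in controls (SD, n = 3 each). None of its comparisons passed in the fit without the block. With the replicate block it was called lower than control in SvbACT (log2 fold change -0.55, edgeR adjusted p = 0.0105) and in SvbREP (-0.47, edgeR adjusted p = 0.0382). Same-numbered SvbREP and control libraries were not taken as paired. Hsp70Ba, an inducible chaperone, was lower in all 3 transgene groups (log2 fold changes against control of -2.99 in svb RNAi, -3.01 in SvbACT and -2.58 in SvbREP, with edgeR adjusted p = 2.58e-06, 8.95e-06 and 8.11e-05).

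Genes were then compared between groups with edgeR's quasi-likelihood test, fitted to 7992 genes and all 12 libraries, and called at a Benjamini-Hochberg adjusted p under 0.05. The 3 comparisons with control share the same control libraries, and the comparison of SvbACT with SvbREP uses libraries of both. A test among all 4 groups called 29 of the 108 lncRNAs, or 26.9%, beside 28.8% of all genes tested. At least 1 of the 4 comparisons called 24 lncRNAs, or 22.2%, beside 28.9% of all genes. Against control, 16 lncRNAs (14.8%) were called in a single comparison, beside 18.1% of all genes. Another 3 (2.78%) were called in a pair of comparisons, beside 5.78% of all genes, and 1, CR42651, in all 3 (0.926%, beside 1.31%). Of the 24, 14 overlapped no other gene of the table.

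**Figure D1:**
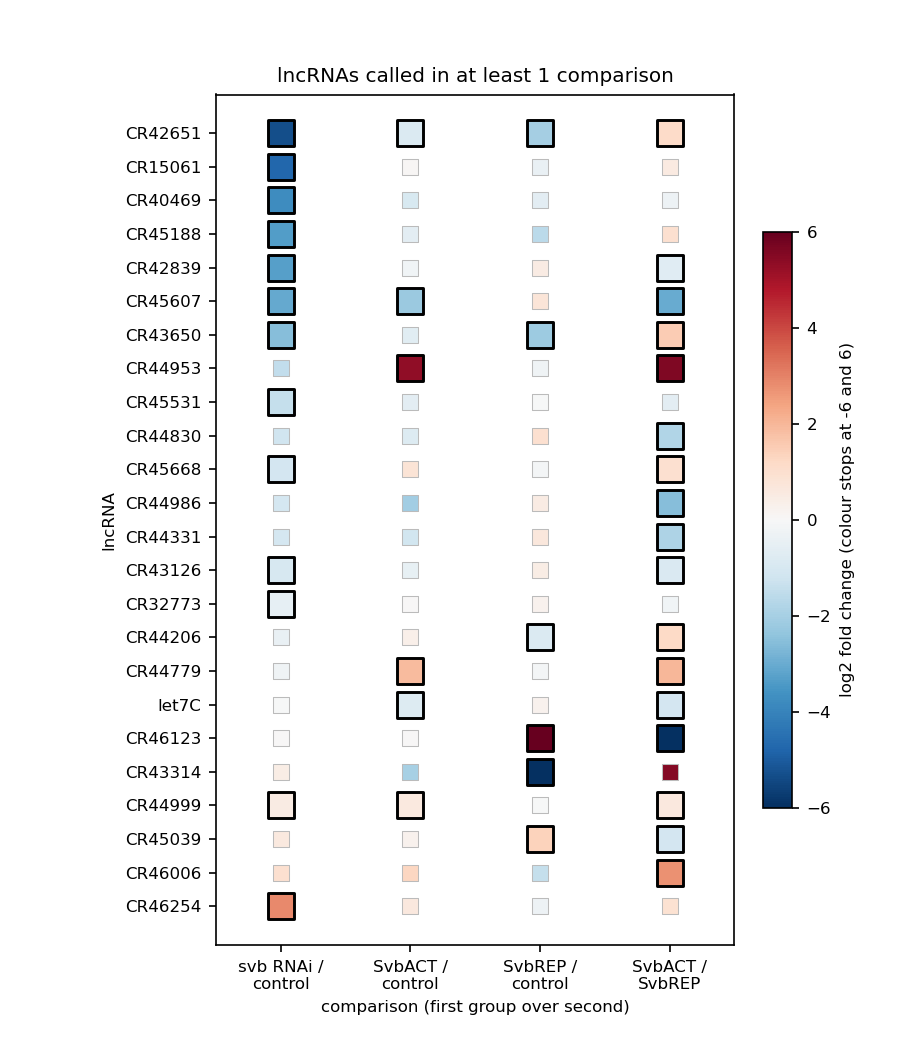
Log2 fold changes of the 24 lncRNAs called in at least 1 comparison (rows) in the 4 comparisons (columns, first group over second), with colour from blue (lower) to red (higher) and large black-edged squares where edgeR's adjusted p was under 0.05. The column of svb RNAi against control holds 11 called squares in blue and 2 in red, and CR42651 is called in every column.

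In the libraries labelled as svb RNAi, 13 lncRNAs were called against control, 11 lower and 2 higher. This was 12% of the 108 tested, against 20.4% of all genes tested (13.7% lower and 6.74% higher). Of the 13, 10 differed by more than 2-fold, as did 41.8% of all genes called in this comparison. Taken over genes tested, this was 10 of 108 lncRNAs, beside 8.55% of all genes. The count ranged from 12 to 17 when libraries were left out in turn.

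CR42651 (FBgn0261503, 3R:6808796-6816379, minus strand) had the smallest p of the 108 in the test among the 4 groups. It overlaps no protein-coding gene and no other gene of the table, and Ama, the nearest protein-coding gene, is 43535 bases away. It had 2.42, 1.97 and 2.66 CPM in the libraries labelled as svb RNAi, 49.3, 56.2 and 46.2 CPM in SvbACT, 22.4, 24.2 and 22.6 CPM in SvbREP, and 103, 70.6 and 107 CPM in control libraries. The 4 groups did not overlap, and their order was svb RNAi, SvbREP, SvbACT and control from low to high. The log2 fold change was -5.30 for svb RNAi (SE 0.229, edgeR adjusted p = 4.58e-10), -0.89 for SvbACT (SE 0.171, edgeR adjusted p = 0.00306) and -2.02 for SvbREP (SE 0.181, edgeR adjusted p = 8.11e-06), each against control.

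CR42839 (FBgn0262028, 3R:16004321-16008073, minus strand) lies 236 bases from srp, which encodes a GATA transcription factor. It had 8.38, 13.2 and 10.1 CPM in the libraries labelled as svb RNAi, against 94.8, 104 and 120 CPM in control libraries. Its log2 fold change came to -3.32 (SE 0.174, edgeR adjusted p = 2.68e-09). Levels in SvbACT (87.2, 83.5 and 103 CPM) overlapped those of control. SvbREP (166, 151 and 138 CPM) lay above them without passing the test (log2 fold change 0.51, edgeR adjusted p = 0.0689). The replicate block gave edgeR adjusted p = 0.0318, though SvbREP and control were not taken as paired. The gene srp itself was not called, at 6.10 ± 1.80 CPM in the libraries labelled as svb RNAi and 12.2 ± 5.62 CPM in controls (SD, n = 3 each).

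CR40469 fell as well, with 52.5, 54.0 and 106 CPM in the libraries labelled as svb RNAi, against 1186, 365 and 1327 CPM in control libraries (log2 fold change -3.76, SE 0.493, edgeR adjusted p = 3.93e-05). Its replicate 2 was the lowest of the 3 libraries in SvbACT (445, 308 and 719 CPM), in SvbREP (562, 349 and 925 CPM) and in control. Neither overexpression group passed against control, with log2 fold changes of -0.97 for SvbACT (edgeR adjusted p = 0.228) and -0.65 for SvbREP (edgeR adjusted p = 0.476). With the replicate block, SvbACT was called lower than control (log2 fold change -0.90, edgeR adjusted p = 0.00428).

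A pair of lowered lncRNAs lay on X beside genes for Unpaired cytokines, the ligands of the JAK/STAT pathway that drive stem cell division in damaged guts. CR45607 (FBgn0267167, X:18244892-18245180, minus strand) is 1608 bases from upd2. It had 3.75, 1.07 and 1.06 CPM in the libraries labelled as svb RNAi, 2.34, 5.07 and 2.63 CPM in SvbACT, 34.3, 32.2 and 16.1 CPM in SvbREP, and 17.0, 12.9 and 17.9 CPM in control libraries. Both svb RNAi (log2 fold change -3.06, SE 0.473, edgeR adjusted p = 0.00019) and SvbACT (-2.24, SE 0.443, edgeR adjusted p = 0.00373) were called lower than control. Without svb RNAi replicate 1 the value for svb RNAi was -3.88. CR15061 (FBgn0030911, X:18292380-18293059, plus strand) is 7784 bases from upd3. It had 0, 0 and 1 counts in the libraries labelled as svb RNAi, 6, 25 and 6 in SvbACT, 3, 10 and 8 in SvbREP, and 8, 23 and 9 in control libraries. The ratio of the summed counts of svb RNAi over control, scaled by library size, was 0.0272, with a 95% counting interval from 0.000672 to 0.160, and edgeR's adjusted p was 0.00797. The fitted log2 fold change, -4.76, was -6.56 without svb RNAi replicate 3, which held that 1 count, and -4.10 without control replicate 2.

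Other lncRNAs lowered in the libraries labelled as svb RNAi were less abundant or changed less. CR43650 (FBgn0263659, 2R:16829095-16839494, plus strand) had 4.41, 1.61 and 5.14 CPM there, against 22.8, 16.7 and 26.2 CPM in control libraries (log2 fold change -2.56, SE 0.407, edgeR adjusted p = 0.000251). CR45188 (3R:4946078-4947278) had 4, 1 and 2 counts, against 29, 17 and 38 in control libraries (log2 fold change -3.35, SE 0.798, edgeR adjusted p = 0.00668). Its value was -4.08 without svb RNAi replicate 1. CR43126 (FBgn0262741, 3R:28586048-28591386, plus strand), 784 bases from fkh, a FoxA transcription factor gene, was steady within groups. It had 16.5, 17.0 and 15.6 CPM in the libraries labelled as svb RNAi, against 31.0, 27.4 and 39.4 CPM in controls (log2 fold change -0.99, SE 0.188, edgeR adjusted p = 0.00116). CR45668, near Act5C on X, and CR45531, inside CG14434, were called with log2 fold changes of -1.10 and -1.42 (edgeR adjusted p = 0.0103 and 0.0168). CR45668 shares 551 exon bases with CG16721 on the opposite strand. CG16721 was also called lower in svb RNAi against control (log2 fold change -0.63, edgeR adjusted p = 0.0108). CR45668 lost its call without svb RNAi replicate 2 or control replicate 3, and CR45531 without svb RNAi replicate 1 or control replicate 2.

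CR46254 and CR44999 were the lncRNAs called higher. CR46254 (FBgn0267987, 2L:54817-55767, plus strand) lies inside Cda5, a chitin deacetylase gene read from the other strand, and shares no exon bases with it. It had 48.7, 36.5 and 41.3 CPM in the libraries labelled as svb RNAi, 8.65, 7.70 and 9.98 CPM in SvbACT, 3.39, 2.20 and 7.70 CPM in SvbREP, and 6.16, 3.94 and 7.08 CPM in control libraries. The log2 fold change of svb RNAi over control was 2.87 (SE 0.344, edgeR adjusted p = 1.60e-05). CR44999 (FBgn0266350, X:3373159-3522787, plus strand) overlaps 6 other genes of the table without sharing exon bases with them. One of these, overlapped in part, is DIP-alpha, which encodes a cell surface protein of the immunoglobulin superfamily. It had 576, 599 and 648 CPM in the libraries labelled as svb RNAi and 700, 548 and 726 CPM in SvbACT, against 428, 449 and 410 CPM in SvbREP and 414, 445 and 456 CPM in controls. Both svb RNAi (log2 fold change 0.47, edgeR adjusted p = 0.0068) and SvbACT (0.59, edgeR adjusted p = 0.00303) were called higher than control. DIP-alpha was higher in all 3 transgene groups, SvbREP included (log2 fold changes of 0.83 in svb RNAi, 0.86 in SvbACT and 0.97 in SvbREP).

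**Figure D2:**
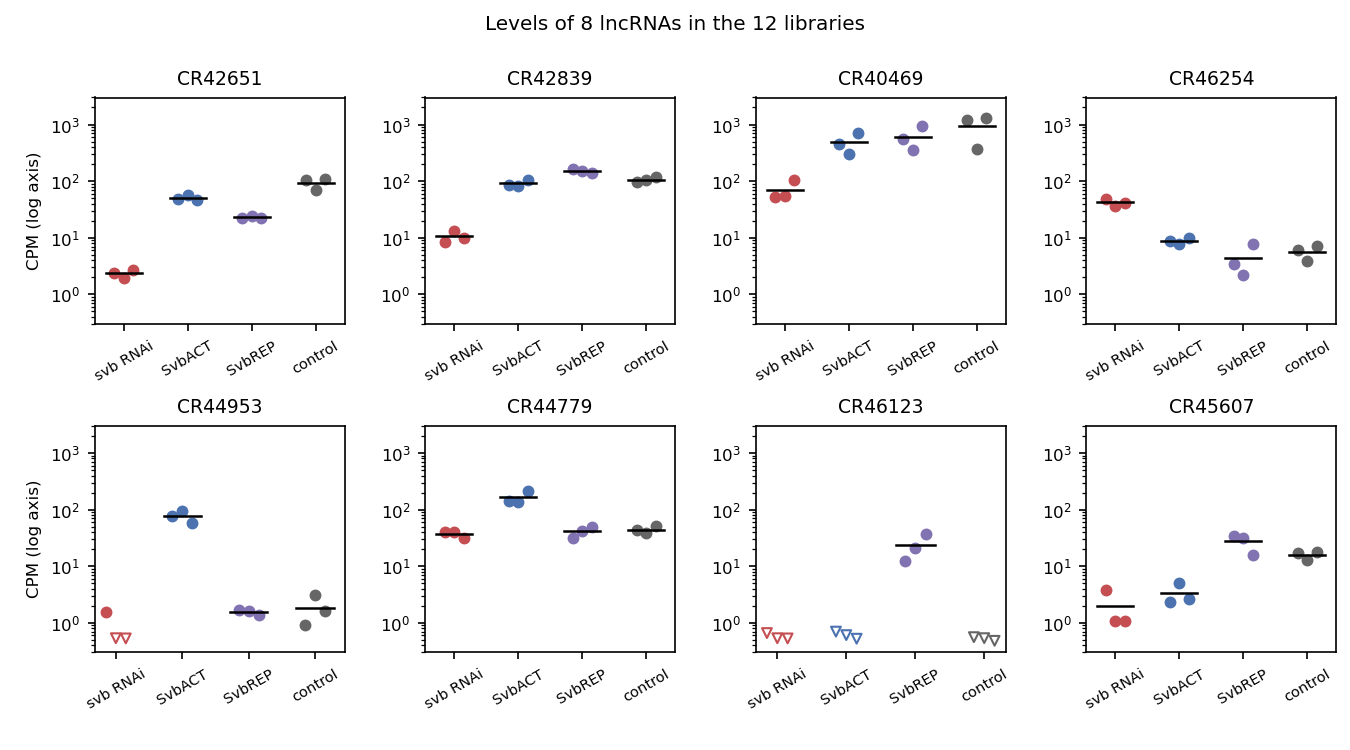
CPM on a log axis for 8 lncRNAs in the libraries of each group (filled points) with the group mean (black line, drawn where every library had more than 3 counts). Open triangles mark libraries with 3 counts or fewer, drawn at the floor. CR42651, CR42839 and CR40469 are low in the libraries labelled as svb RNAi, CR44953 and CR44779 are high in SvbACT, and CR46123 is seen in SvbREP alone among these libraries.

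SvbACT against control called 6 lncRNAs, 3 higher and 3 lower. This was 5.56% of those tested, against 9.15% of all genes (3.92% higher and 5.23% lower). The replicate block raised the count to 14, with none of the 6 lost, and it was 10 without SvbREP replicate 3, a library that enters this comparison through the shared filter and estimate of spread. Here and below, shares of all genes are given only for the fit to all 12 libraries without the block.

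CR44953 (FBgn0266258, 3R:29755190-29759040, minus strand) set SvbACT apart from every other group. It had 328, 466 and 331 counts in SvbACT, against 7, 2 and 1 in the libraries labelled as svb RNAi, 5, 6 and 8 in SvbREP and 5, 17 and 10 in controls. In CPM this was 76.7, 94.5 and 58.0 in SvbACT, against 0.933, 3.05 and 1.61 in control. The log2 fold change was 5.34 over control (SE 0.408, edgeR adjusted p = 5.33e-07) and 5.59 over SvbREP (SE 0.435, edgeR adjusted p = 3.34e-07). Its neighbour yata, 662 bases away on the opposite strand, differed little, with a log2 fold change of -0.14 in SvbACT (SE 0.137, edgeR adjusted p = 0.641).

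CR44779 (FBgn0266005, X:1047242-1088866, plus strand) had 143, 136 and 215 CPM in SvbACT, against 42.9, 39.1 and 51.6 CPM in control libraries. Its log2 fold change came to 1.89 (SE 0.201, edgeR adjusted p = 1.61e-05), while svb RNAi (-0.26) and SvbREP (-0.10) did not pass against control. It shares 94 exon bases with CG3655 on the opposite strand, and CG3655 was not called in SvbACT against control (log2 fold change -0.42, edgeR adjusted p = 0.144).

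The microRNA host let7C (FBgn0263049, 2L:18455717-18473132, plus strand) was called lower in SvbACT. It had 53.8, 57.6 and 82.3 CPM in SvbACT, against 133, 80.4 and 133 CPM in control libraries (log2 fold change -0.84, SE 0.217, edgeR adjusted p = 0.023). SvbACT replicate 3 overlapped control replicate 2, and the call was lost without SvbACT replicate 1 or 2 or without control replicate 1 or 3. The libraries labelled as svb RNAi (136, 88.8 and 112 CPM) and SvbREP (134, 160 and 119 CPM) stayed near the control values. It shares 169 exon bases with CG10283 on the opposite strand, which was also lower in SvbACT (log2 fold change -1.07, edgeR adjusted p = 1.20e-05). These counts measure the long host transcript, not the mature microRNAs.

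SvbREP against control called 6 lncRNAs, 2 higher and 4 lower, which was 5.56% of those tested beside 4.05% of all genes (1.35% higher and 2.7% lower). The count was 11 with the replicate block, although same-numbered SvbREP and control libraries were not taken as paired. It was 3 without SvbREP replicate 1, 3 without control replicate 3 and 9 without SvbREP replicate 3, so single libraries carried part of it.

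CR46123 (FBgn0267798, 3R:1366234-1366601, minus strand) was seen in SvbREP only, among the libraries here. It had 36, 76 and 213 counts in the SvbREP libraries and 0 in every one of the other 9. This was at least 44.6-fold higher than control and at least 38.4-fold higher than SvbACT, taking 3 counts per library as the floor. edgeR's adjusted p was 0.000504 against control, whereas DESeq2 did not call it (adjusted p = 0.187). It lies inside Myo81F, an unconventional myosin gene read from the other strand, which was not called (log2 fold change 1.03, edgeR adjusted p = 0.0625).

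CR45039 was the other lncRNA called higher. It lies 479 bases from E(spl)mbeta-HLH, a repressor gene that responds to Notch (3R:26006502-26007073). It had 36.7, 25 and 18.4 CPM in SvbREP, against 9.89, 10.0 and 10.8 CPM in controls (log2 fold change 1.37, SE 0.321, edgeR adjusted p = 0.0244). The call was lost without SvbREP replicate 1 or 2 and without control replicate 1 or 3. E(spl)mbeta-HLH was not called in any of the 4 comparisons.

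CR42651 and CR43650 were lower in SvbREP, as in the libraries labelled as svb RNAi. CR43650 had 5.77, 5.50 and 3.33 CPM in SvbREP, against 22.8, 16.7 and 26.2 CPM in controls (log2 fold change -2.20, SE 0.408, edgeR adjusted p = 0.00486). CR44206 (FBgn0265104, 2R:13329352-13344808, minus strand) had 114, 166 and 154 CPM in SvbREP, against 264, 216 and 304 CPM in controls (log2 fold change -0.85, SE 0.177, edgeR adjusted p = 0.0111). Its call was lost without SvbREP replicate 1 or control replicate 3. CR43314 had no counts in the 3 SvbREP libraries, against 1, 40 and 36 in controls, at least 5.55-fold lower by the same floor (edgeR adjusted p = 0.0479). That call was lost in 10 of its 16 alternatives, those that left out any SvbREP library among them.

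The activator and the repressor forms were also set against each other. SvbACT against SvbREP called 17 lncRNAs, 8 higher and 9 lower in SvbACT. This was 15.7% of those tested, against 13.1% of all genes (6.51% higher and 6.63% lower). Of the 17, 13 differed by more than 2-fold, as did 47.7% of all genes called. Taken over genes tested, this was 13 of 108 lncRNAs, beside 6.27% of all genes. Leaving out libraries in turn gave between 12 and 18.

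CR44953 and CR44779 headed those higher in SvbACT along with CR46006. CR46006 (3L:10323501-10367450) had 17.1, 14.0 and 18.0 CPM in SvbACT, against 0.679, 2.75 and 3.5 CPM in SvbREP (log2 fold change 2.72, SE 0.466, edgeR adjusted p = 0.000863). Control libraries lay between them, at 10.6, 5.2 and 4.02 CPM, and neither form passed against control (edgeR adjusted p = 0.0636 for SvbACT and 0.117 for SvbREP). With the replicate block, SvbACT passed (edgeR adjusted p = 0.0448). CR44206 had 294, 306 and 393 CPM in SvbACT, against 114, 166 and 154 CPM in SvbREP (log2 fold change 1.19, SE 0.177, edgeR adjusted p = 0.000249). CR42651 (1.13), CR43650 (1.53), CR45668 (0.96) and CR44999 (0.62) made up the rest of the 8. The call of CR43650 was lost without SvbACT replicate 3 or SvbREP replicate 3. That of CR45668 was lost without replicate 1 or 3 of SvbACT or of SvbREP.

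Besides CR46123, CR45607 was lower in SvbACT than in SvbREP by a wide margin (log2 fold change -3.02, SE 0.448, edgeR adjusted p = 0.000245). let7C (-1.09, edgeR adjusted p = 0.00335), CR43126 (-0.92, edgeR adjusted p = 0.00351) and CR42839 (-0.73, edgeR adjusted p = 0.00361) were lower too, and each kept its call in every alternative run. The remaining 4 lost their call when certain single libraries were left out. CR44331, inside puc, the JNK phosphatase gene, had 2.81, 5.68 and 3.15 CPM in SvbACT and 20.7, 16.2 and 6.13 CPM in SvbREP (log2 fold change -1.86, edgeR adjusted p = 0.0268). The gene puc, read from the other strand, was called lower too (log2 fold change -0.47, edgeR adjusted p = 0.0103). CR44830 had 5.14, 2.43 and 2.98 CPM in SvbACT and 19.3, 8.52 and 9.45 CPM in SvbREP (log2 fold change -1.81, edgeR adjusted p = 0.0263). CR44331, CR44830 and CR45039 lost the call without SvbREP replicate 1, each among others. CR44986, whose exons lie wholly within exon bases of Gpdh1, had 2, 1 and 3 counts in SvbACT and 12, 4 and 14 in SvbREP, and lost its call (edgeR adjusted p = 0.0465) in 12 of 16 alternatives. Gpdh1, on the opposite strand, was itself called lower in SvbACT than in SvbREP (log2 fold change -0.56, edgeR adjusted p = 0.0114).

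Protein-coding genes nearest to the called lncRNAs were measured in the same libraries. In the libraries labelled as svb RNAi, 10 called lncRNAs had a tested nearest neighbour outside their own span, and 5 of these neighbours were called, all lower as their lncRNA was. Among all genes tested, 20.4% were called in that comparison, and 13.7% were called lower. The 5 include upd2 and upd3, which lie close together on X, so they are not all separate loci. Called neighbours were 1 of 5 in SvbACT against control, beside 9.15% of all genes. They were 0 of 3 in SvbREP against control, beside 4.05%. In SvbACT against SvbREP they were 4 of 14, beside 13.1% of all genes, with 3 in the lncRNA's direction and 1 opposite.

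The cytokine gene upd2 was low in the same groups as CR45607. It had 3.53, 7.33 and 4.43 CPM in the libraries labelled as svb RNAi, 9.59, 21.3 and 8.41 CPM in SvbACT, 150, 148 and 59.5 CPM in SvbREP, and 55.6, 61.8 and 64.3 CPM in controls. Its log2 fold changes against control were -3.55 for svb RNAi (edgeR adjusted p = 1.05e-05), -2.21 for SvbACT (edgeR adjusted p = 0.000982) and 0.97 for SvbREP (edgeR adjusted p = 0.132). For CR45607 the corresponding values were -3.06, -2.24 and 0.78, with only the first and second called. Both genes lie on the minus strand.

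The gene upd3 had 3.09, 3.93 and 5.32 CPM in the libraries labelled as svb RNAi, against 45.3, 66.7 and 48.6 CPM in controls (log2 fold change -3.68, edgeR adjusted p = 9.23e-07). SvbACT (-0.72) and SvbREP (-0.88) did not pass, as was the case for CR15061. Act5C, the cytoplasmic actin gene 872 bases from CR45668, averaged 1504 ± 11.3 CPM in the libraries labelled as svb RNAi and 3399 ± 255 CPM in controls (SD, n = 3 each, log2 fold change -1.18, edgeR adjusted p = 4.99e-06). The neighbours fkh (-0.64) and Cdep (-0.58) were lower by less than their lncRNAs. Cda5, around CR46254, was higher in the libraries labelled as svb RNAi (log2 fold change 1.45, edgeR adjusted p = 0.0149). The nearest genes outside the spans of the 2 raised lncRNAs lay on the other side of 0 without a call, dbr beside CR46254 at -0.36 (edgeR adjusted p = 0.0773) and dnc beside CR44999 at -0.38 (edgeR adjusted p = 0.0771).

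**Figure D3:**
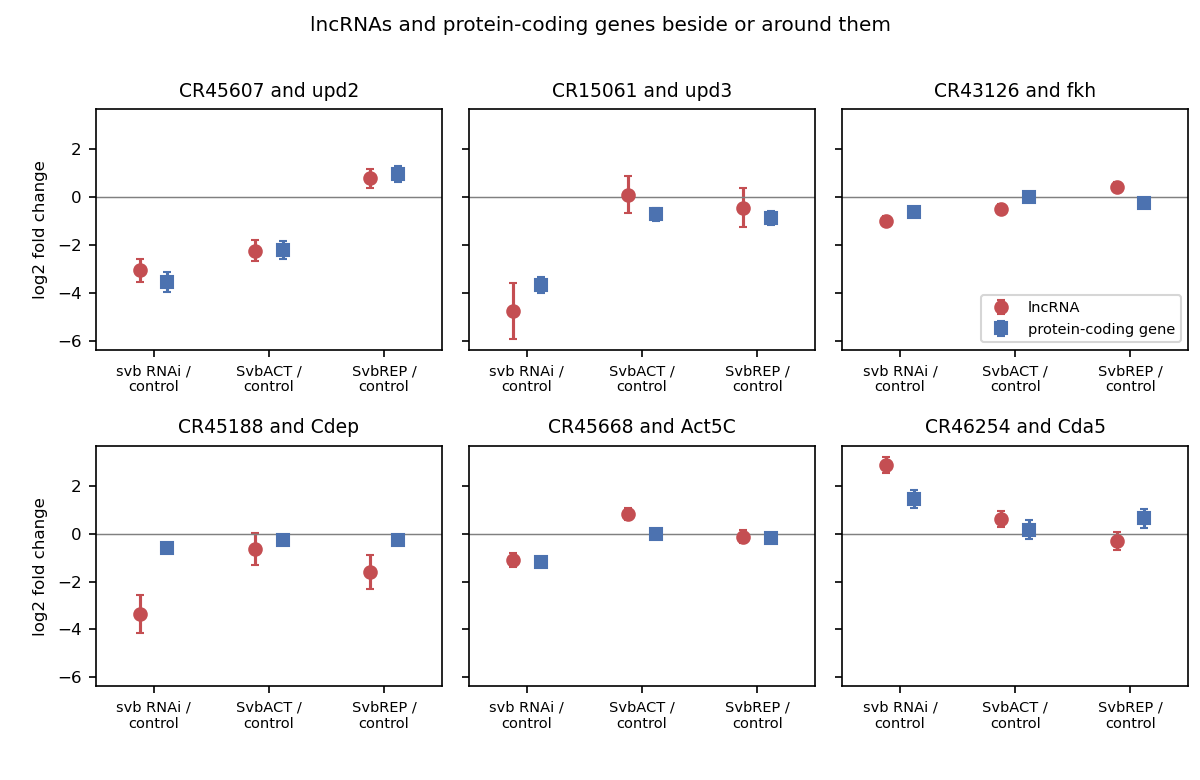
Log2 fold changes against control (vertical axis) of 6 lncRNAs (red circles) and the protein-coding gene beside or around each (blue squares) in svb RNAi, SvbACT and SvbREP, with error bars of 1 standard error. The pair CR45607 and upd2 is low in svb RNAi and SvbACT, and these 6 pairs were picked from the called lncRNAs to show neighbours that were called too.

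Across the 108 tested lncRNAs, the median log2 fold change was -0.25 in svb RNAi against control, beside 0.02 for all genes, and 63.9% of the lncRNAs were below 0, beside 48.2% of all genes. The median was -0.00 in SvbACT against control (all genes 0.01) and 0.12 in SvbREP against control (all genes -0.00). For SvbACT against SvbREP it was -0.23 (all genes 0.00). These medians are descriptions of a list and were not tested.

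The shift in SvbREP lay with the scarce lncRNAs and with single libraries. Among the 72 tested lncRNAs that averaged under 10 CPM, the median difference from the control mean was 0.69 and 0.33 (log2 CPM) in SvbREP replicates 1 and 2 and -0.09 in SvbREP replicate 3. It was 0.01, -0.31 and 0.32 in control replicates 1, 2 and 3. For the 36 from 10 CPM upward, the SvbREP libraries lay at -0.13, -0.00 and -0.03. All genes under 10 CPM gave 0.17 and 0.09 in SvbREP replicates 1 and 2. Annotated antisense RNAs, a separate class of 203 tested genes looked at after these values were seen, stood at 1.15, 0.53 and 0.04 in SvbREP replicates 1, 2 and 3. SvbREP replicates 1 and 2 are also the shallowest libraries and those with the highest enteroendocrine marker sums. The next highest sum, 1043 CPM, was in svb RNAi replicate 1, where the scarce lncRNAs stood at -0.002 and the antisense RNAs at 0.11. The part of depth or of other cells in the shift was not tested.

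**Figure D4:**
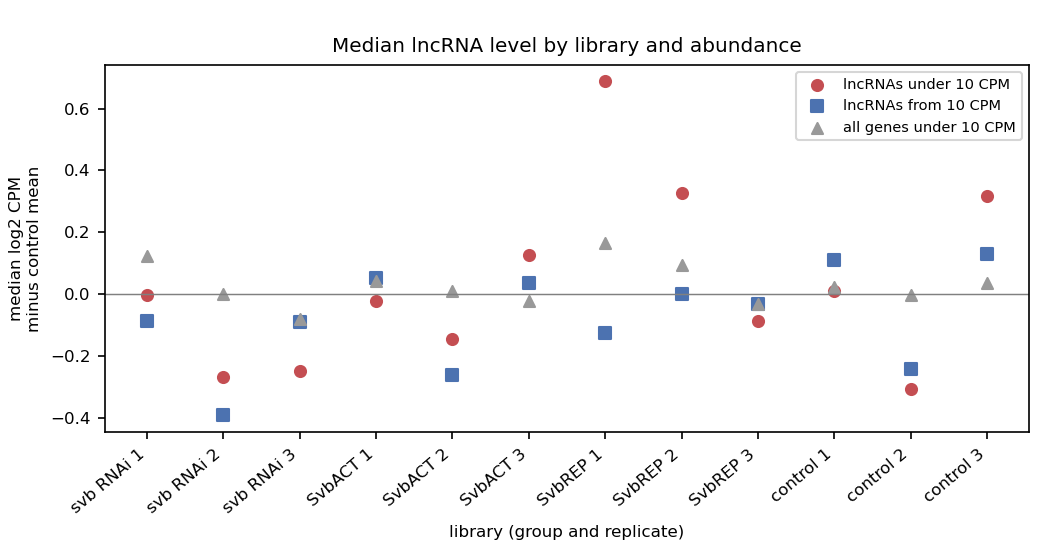
Median log2 CPM minus the control mean (vertical axis) in each of the 12 libraries (horizontal axis) for tested lncRNAs under 10 CPM (red circles), lncRNAs from 10 CPM (blue squares) and all genes under 10 CPM (grey triangles). SvbREP replicate 1 has the highest red circle, at 0.69, while its blue square is at -0.13.

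Protein partners of lncRNAs were read from lists drawn up with earlier results of these data known. Of 9 dosage compensation genes that bind or act with roX RNAs, msl-1 and Iswi were called higher in the libraries labelled as svb RNAi (log2 fold changes 0.51 and 0.37) and Unr lower (-1.35), where 20.4% of all genes were called. None of the 9 was called in SvbACT or SvbREP against control, while JIL-1 (0.44) and Iswi (0.49) were higher in SvbACT than in SvbREP. Of 7 omega speckle proteins that Hsromega gathers, Hrb87F, an hnRNP, was the one called, in svb RNAi against control (log2 fold change 0.38, edgeR adjusted p = 0.0206). Of 11 genes of the nuclear exosome, which degrades many noncoding transcripts, Rrp6 was called higher in the libraries labelled as svb RNAi (log2 fold change 0.44, edgeR adjusted p = 0.0251). No other comparison called a member of either list.

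Cell type markers moved beside these results. Of 8 progenitor markers, 5 were called lower in the libraries labelled as svb RNAi (Dl, klu, Sox21a, Sox100B and zfh2), none in SvbACT against control, and esg in SvbREP against control (log2 fold change -0.65). In svb RNAi against control, 20.4% of all genes were called, and 13.7% were called lower. Both esg (0.89) and zfh2 (0.72) were called higher in SvbACT than in SvbREP (edgeR adjusted p = 6.51e-05 and 0.0133). Enterocyte markers summed to between 343 and 414 CPM in the libraries labelled as svb RNAi, 454 and 555 in SvbACT, 489 and 669 in SvbREP, and 412 and 784 in controls. Myo31DF made up most of these sums, with a mean of 190 CPM in svb RNAi, 392 CPM in SvbACT, 535 CPM in SvbREP and 394 CPM in control. It was called lower in svb RNAi against control (log2 fold change -1.05, edgeR adjusted p = 3.97e-05). Myo31DF was also called lower in SvbACT than in SvbREP (-0.45, edgeR adjusted p = 0.0393). The median log2 fold change over the 12 tested enterocyte markers was -0.21 in svb RNAi, -1.09 in SvbACT and -2.37 in SvbREP against control, beside medians near 0 for all genes. The trypsin gene alphaTry was called lower in SvbACT (-2.02, edgeR adjusted p = 0.0351) and in SvbREP (-3.42, edgeR adjusted p = 0.00589). Visceral muscle markers summed to between 85.1 and 115 CPM in the libraries labelled as svb RNAi, 65.9 and 113 in SvbACT, 346 and 423 in SvbREP, and 344 and 396 in controls. Zasp52 carried much of that gap, with log2 fold changes of -2.14, -2.26 and 0.07 in svb RNAi, SvbACT and SvbREP against control. Of 7 tested muscle markers, Zasp52 and bt (-1.87, edgeR adjusted p = 0.0304) were called lower in SvbACT against control. In SvbACT against SvbREP the same 2 were called lower, while wupA was called higher (3.25, edgeR adjusted p = 0.0382). Of 9 tested enteroendocrine markers, Tk was called lower in svb RNAi against control (log2 fold change -3.40, edgeR adjusted p = 0.00118). None was called in SvbACT or SvbREP against control. Tk (-1.79, edgeR adjusted p = 0.0336) and Syt1 (-2.10, edgeR adjusted p = 0.0451) were lower in SvbACT than in SvbREP. Haemocyte markers summed to at most 32.6 CPM in any library. In sorted pools, fewer cells of a type and less RNA per cell cannot be told apart, and the part of cell composition in the lncRNA differences was not tested.

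Other lncRNAs with a name did not pass. The piRNA locus flam had 19.8, 6.43 and 3.37 CPM in the libraries labelled as svb RNAi, 15.2, 5.27 and 5.25 CPM in SvbACT, 4.07, 1.92 and 5.43 CPM in SvbREP and 4.48, 2.87 and 7.88 CPM in controls. The spread within groups exceeded the gaps between them, and 74.7% of its exon bases are annotated as transposon. The gene was picked after its values were seen. The young gene sphinx, known for a part in male courtship, had between 0 and 7 counts and was not tested. Among abundant members, CR43459 averaged 267 ± 8.35 CPM in the libraries labelled as svb RNAi, 258 ± 41.5 in SvbACT, 302 ± 57.7 in SvbREP and 294 ± 11.6 in controls (SD, n = 3 each). Its neighbour CR45054 averaged 178 ± 15.3 CPM in the libraries labelled as svb RNAi, 170 ± 44.9 in SvbACT, 222 ± 34.6 in SvbREP and 224 ± 33.6 in controls (SD, n = 3 each). Neither was called in the fit without the block, and with it CR45054 was called lower in SvbACT than in control (log2 fold change -0.42, edgeR adjusted p = 0.0346).

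The authors' deposited table called more genes than the fit here, in all and among lncRNAs, and its threshold is not given in the sources used here. Over all genes the authors' deposited table called 1667 in svb RNAi, 837 in SvbACT and 531 in SvbREP against control and 1173 in SvbACT against SvbREP, where the fit here called 1633, 731, 324 and 1050. Of lncRNAs, the authors' deposited table called 19 in svb RNAi against control (4 higher and 15 lower), 11 in SvbACT against control, 11 in SvbREP against control and 21 in SvbACT against SvbREP. All 13, 6, 6 and 17 lncRNAs called here were among the calls of the authors' deposited table, with the same direction.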

How the data were processed

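RNA of sorted GFP-positive cells was sequenced in 12 libraries, 3 for each of 4 groups. Per the submitters' processing notes, FastQC 0.11.5, STAR 2.5.2b, HTSeq 0.6.0 and edgeR were used with the dm6 genome. Strand setting, annotation, use of molecular identifiers and the choice of rows are not given in the sources used here. The authors deposited raw read counts per gene. The deposited table also holds the authors' log2 fold changes, their p-values and a call score (1, -1 or 0) for each comparison. It names the RNAi columns after ovo, and they were matched to svb RNAi through the comparison names of the table.

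From the counts, edgeR 4.0.16 (R 4.3.3) kept genes by filterByExpr (min.count 10, min.total.count 15, min.prop 0.7), leaving 7992 genes, 108 lncRNAs among them. Libraries were scaled by TMM, and a quasi-likelihood fit of group over 12 libraries was tested with Benjamini-Hochberg adjustment over all 7992 genes (threshold 0.05). SE is the log2 fold change over the root of F. The common biological coefficient of variation was 22.9%. Log2 CPM used a prior count of 2. Rows with no symbol or a bare number (78) hold genes under their identifiers and stayed in the fit.

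Members and lists were chosen with earlier results of these data known. Named lncRNAs were up to 8 called higher and 8 lower by fold change per comparison, the 8 most abundant, a short list of known lncRNAs, those called in all 3 comparisons with control and the 10 with the smallest p among groups. Positions and neighbours came from the Ensembl release 115 annotation.

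Same-numbered libraries were checked for pairing by the correlation of their deviations from group means. The lowest pair correlation was 0.113 for SvbACT and control and 0.103 for SvbACT and SvbREP, which were taken as paired from the data, and 0.0674 for svb RNAi and control and -0.0809 for SvbREP and control, which were not. Mean correlations were 0.183, 0.143, 0.144 and 0.0940 in that order, so the split rests on the lowest pair of each comparison. No pair of replicates within a group agreed within sampling noise. DESeq2 1.42.0, another scaling, no filter, 2-group fits, a replicate block and leaving out each library were tried. Batches by calendar day are not labelled beyond the replicate number.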

Additional observations from a re-analysis of the deposited data

How the results depend on the processing

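Of 41 named pairs of lncRNA and comparison that were called, 27 kept direction and call under every one of the alternatives run, 14 lost the call under at least 1 and 0 reversed. Of 75 uncalled named pairs, 17 were called under at least 1 alternative. SvbACT against control gave 10 lncRNAs by DESeq2 and 14 with the replicate block, in place of 6. SvbREP against control gave 11 with the block, in place of 6. The block on the paired comparison of SvbACT with SvbREP gave 24 in place of 17. For svb RNAi against control, which like SvbREP against control was not taken as paired, it gave 18 in place of 13. The block lost none of the calls. Shares of all genes called were not worked out for these alternatives, so the lncRNA counts cannot be set against them. Hsromega was called higher in SvbACT than in SvbREP with the block (log2 fold change 0.44, edgeR adjusted p = 0.0192). The median log2 fold change of SvbACT over SvbREP was -0.33 with no filter on low counts. Leaving out 1 library at a time, the count ranged from 12 to 17 for svb RNAi, 5 to 10 for SvbACT and 3 to 9 for SvbREP against control, 12 to 18 for SvbACT against SvbREP and 23 to 37 among the 4 groups. The medians ranged from -0.37 to -0.17 for svb RNAi, -0.21 to 0.076 for SvbACT and 0.05 to 0.24 for SvbREP against control, and -0.38 to -0.14 for SvbACT against SvbREP. Without control replicate 2, which stood apart at ovo, 16, 8 and 6 lncRNAs were called in svb RNAi, SvbACT and SvbREP against control. The cause of these moves was not tested. Depth limits the scarce lncRNAs, since 3 counts are 1.02 CPM in the shallowest library, while the median lncRNA was at 2.70 CPM.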
